A study of Mus musculus with 9 samples.

Results

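The miR-297, miR-466, miR-467 and miR-669 families are rodent microRNAs (miRNAs) of repetitive sequence, most of whose hairpin genes stand in an intron of Sfmbt2. Members were the rows of the deposited table whose name begins with miR-297, miR-466, miR-467 or miR-669 followed by a letter or hyphen. That gave 56 of 1129 rows, of which 4 belong to miR-297, 24 to miR-466, 10 to miR-467 and 18 to miR-669. Rows were chosen by name, but the families were proposed with the day 7 increase of miR-669a-5p in these data already known. Read counts decided which rows were merged and which were summed: 4 rows had the same count as another member in all 9 libraries and were merged with it, which left 52 distinct rows. Together the distinct rows held 5363 of 35408394 counts, or 0.0152% of the table.

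The libraries are small RNA from skin of C57BL/6 mice, a common inbred strain, described as adult females aged 6 months. There were 3 groups of 3 samples: back skin cut out by an 8 mm punch at wounding (day 0), wound-edge skin taken on day 7, and back skin of a diabetic mouse model. The diabetic samples are titled T7, their columns carry T0 and their treatment text describes skin cut out at wounding, so their day of collection was not settled and a time difference cannot be told apart from the diabetic model. The sources used here do not give how diabetes was induced. The labels do not say whether samples of different groups came from the same animals, so a p-value measures only the spread between the 9 samples, which may be technical in part.

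A miRNA hairpin is cut into a duplex with a 5p and a 3p arm, and an arm loaded into Argonaute finds its targets mainly through its seed, bases 2 to 8. Sfmbt2 encodes a Polycomb-group protein and is imprinted in mouse, with expression from the paternal copy in the placenta, where the miRNAs of its intron are abundant. In mouse, miR-669a is known as a repressor of MyoD, the muscle-determining factor, and miR-467 as a repressor of the angiogenesis inhibitor thrombospondin under high glucose.

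By name, the 56 rows traced to hairpin genes of the RefSeq annotation of GRCm38.p6, which lists 82 such genes. All but 10 of them, 72 genes, lie within Sfmbt2 on chromosome 2, all on its strand. In GENCODE M21 none of the 72 overlaps an Sfmbt2 exon. They stand between exon 10 and the exon after it in the transcript Sfmbt2-201, over 51617 bases. The intron holds 5 miR-297, 24 miR-466, 14 miR-467 and 29 miR-669 genes. In the middle of the run a miR-467, a miR-466 and a miR-669 gene follow each other 12 times, which accounts for 36 genes, with a median spacing of 2452 bases between repeats. The miRNAs miR-467a, miR-466b and miR-669a have 10, 8 and 12 genes each, so reads of these names cannot be assigned to a single hairpin.

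**Figure D1:**
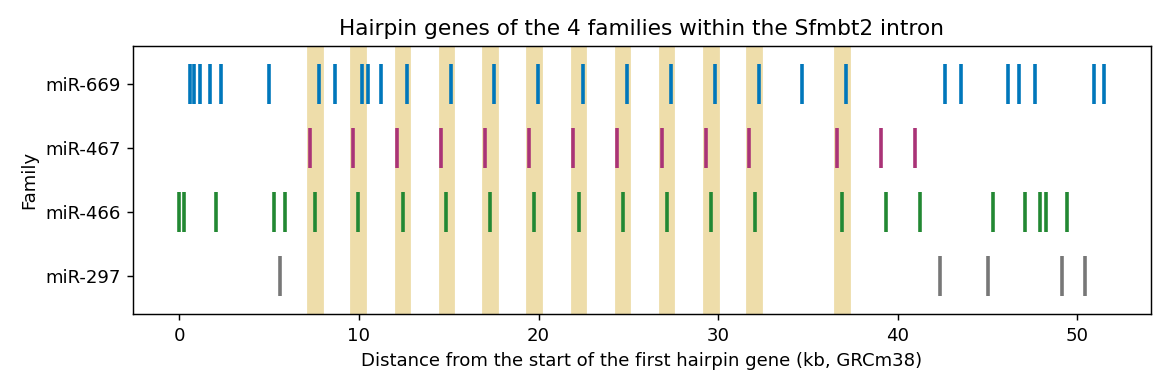
Position of the 72 hairpin genes in the Sfmbt2 intron, by family (vertical axis), as distance in kb from the start of the first gene (horizontal axis, GRCm38). Each stroke is a gene, and the 12 shaded spans mark where a miR-467, a miR-466 and a miR-669 gene follow each other.

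The name Sfmbt2 did not cover every member. All hairpin genes of 46 rows lay inside Sfmbt2, 4 rows (miR-297a-5p and the 3 rows of miR-466f) had genes inside and outside it, and the genes of 6 rows lay only elsewhere. These 6 are miR-466i-3p and miR-466i-5p (chromosome 13, in an intron of Cdk13 on the opposite strand), miR-466j (chromosome 10, in no annotated gene), miR-466k (chromosome 3, in an intron of Gm37240 on the opposite strand), miR-466q (chromosome 3, in an intron of Tnik on the same strand) and miR-467g (chromosome 5, in an intron of Grk4 on the opposite strand). Mature sequences of 5 member rows were in the RefSeq table of GRCm38.p6, and they are shown because they carry the dinucleotide repeats that make these rows hard to tell apart. The seed is in capitals, and each sequence runs 5′ to 3′.
miR-466k: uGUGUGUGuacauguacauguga
miR-466j: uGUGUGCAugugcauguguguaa
miR-466i-3p: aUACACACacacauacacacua
miR-466q: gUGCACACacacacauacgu
miR-467g: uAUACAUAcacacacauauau
They lie at chr3:85467396-85467418 (plus strand), chr10:60960802-60960824 (plus strand), chr13:17747552-17747573 (plus strand), chr3:28419988-28420007 (plus strand) and chr5:34732872-34732892 (minus strand), in the order printed. In miR-466k and miR-466j, 69.6% and 73.9% of bases are U or G. In miR-466i-3p, miR-466q and miR-467g, 86.4%, 70.0% and 71.4% are C or A. The run GUGUGU, searched on the strand of the mature RNA, is in both of the first and in 1.01% of 1679 mature mouse sequences of that table. The run ACACAC is in the other three and in 0.655%. The 5 seeds all differ from each other, and no other sequence of the RefSeq table has any of them. Sequences of the other member rows are missing from it, so whether they share these seeds could not be seen. The shares of the 2 runs leave those rows out too. These rows were at the floor of the data, with 18, 2, 10, 26 and 1 counts over the 9 libraries in the order printed.

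Library totals ran from 2537167 to 5453539 counts, so that 1 count was worth 0.183 to 0.394 CPM (the count scaled to a fixed library size) and a count of 0 allows up to 3 counts, or 0.550 to 1.18 CPM. Such floors and the intervals below cover counting error only. Of the 52 distinct rows, 15 had counts in all 9 libraries, 35 reached 10 counts in total, and 14 never reached 3 counts in any library. The libraries held keratinocyte miRNAs, as skin should: the 7 of the epithelial list, with miR-203-3p, miR-205-5p and the miR-200 family, summed to 57161 to 88886 CPM. Most of this was miR-203-3p, with means of 53142 CPM on day 0, 44898 CPM on day 7 and 55034 CPM in the diabetic group. Levels below are CPM after TMM scaling, which aligns the libraries on the bulk of their miRNAs, so that a change is relative to the rest of the table. Day 7 against day 0, the log2 fold changes of the 447 rows tested had a median of 0.08 with TMM and -0.46 with total counts. That shift separates the TMM values below from those with total counts.

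Counts were concentrated in a few rows. miR-467a-5p, which had the same counts as miR-467b-5p, held 36.1% of all distinct member counts and ranked 198 in mean CPM among all rows. miR-669a-5p held 8.67%, miR-669c-5p 7.24%, miR-467e-5p 7.22%, miR-669a-3p 6.04% and miR-466i-5p 5.13%. The number of genes did not order the levels: miR-467e-5p and miR-669c-5p, with 1 gene each, had 387 and 388 counts, against 465 for miR-669a-5p with 12 genes and 76 for miR-466b-5p with 8. Rows of the 5p arm held 83.8% of the counts whose name gives an arm. The share was 92.3% in miR-467, 75.6% in miR-466, 75.4% in miR-669 and 43.0% in miR-297.

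Of the 52 distinct rows, 12 passed the filter on low counts, which asks for 2.54 CPM of total counts, or 10 counts in a library of median size, in at least 3 libraries. miR-466b-5p, with 76 counts in all, passed only through the 3 day 7 libraries. The other 11 passed also without them. The row with the most counts left outside was miR-467d-5p, with 74. Since the high day 7 level of miR-669a-5p was known when the families were proposed, and that of miR-466b-5p let it pass the filter, values of these 2 rows against day 7 are given as a description with no p-value.

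Between the skin removed at wounding and the wound edge on day 7, 3 rows of the miR-467 family were higher on day 7. Of the 12 distinct rows tested, 5 were past the threshold as higher, 0 as lower, and 7 did not pass (edgeR, adjusted p under 0.05 over all 447 rows tested). Without miR-669a-5p and miR-466b-5p, whose choice favoured a high day 7 level, 3 of 10 rose and 0 fell. Over all 447 rows, 8.05% were called higher and 4.7% lower, 12.8% in all. The 3 that rose were miR-467a-5p, miR-467c-5p and miR-467e-5p. Of the 12 tested rows 9 are of the 5p arm, 5 of them past the threshold, and 3 are of the 3p arm, 0 of them past it. These 5 include miR-669a-5p and miR-466b-5p, so the counts by arm are only a description. A difference between arms was not tested. In all 3 of the 3p rows the day 7 libraries lay above those of day 0 with TMM, and in 0 of them with total counts. The median log2 fold change was 1.11 for the 12 and 0.87 for the 10, against 0.08 over all tested rows, and describes the rows that passed the filter. It is not a value for all members.

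**Figure D2:**
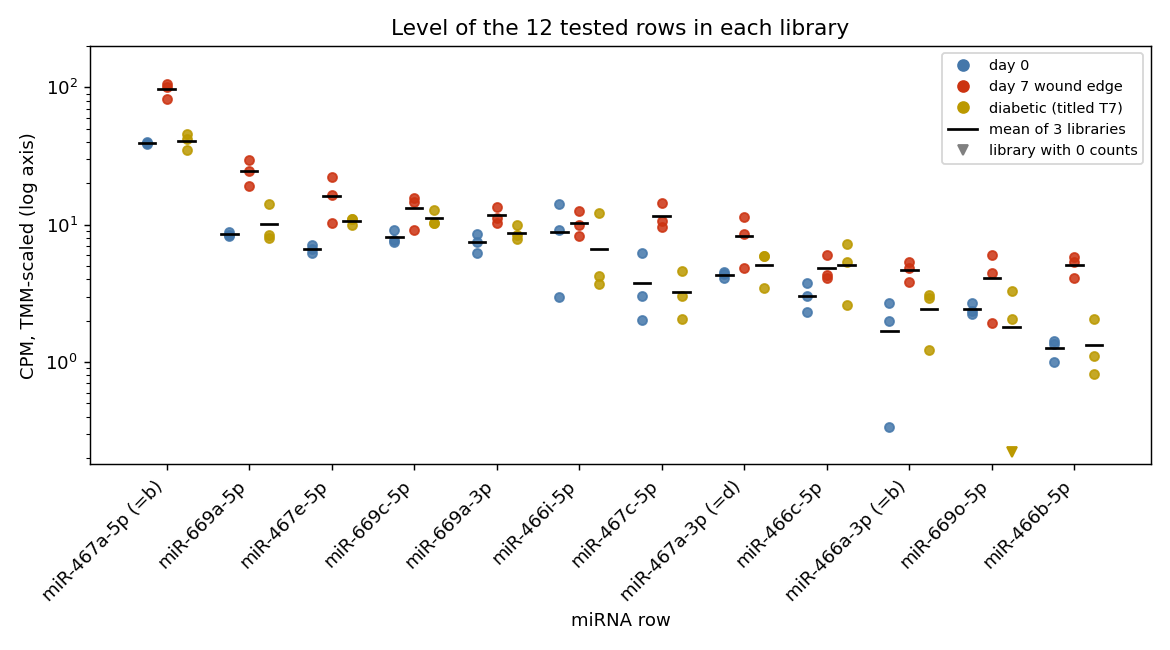
Level of the 12 tested distinct rows in each of the 9 libraries, as TMM-scaled CPM on a log axis, with rows ordered by mean level. Points are libraries, lines are means of 3, the triangle marks a library with 0 counts, and (=b) or (=d) names the row with equal counts. For miR-467a-5p the day 7 libraries lie at 82.8 to 106 CPM and all others at 45.5 CPM or below.

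miR-467a-5p stood at 38.4, 39.9 and 39.3 CPM on day 0, at 100.8, 106 and 82.8 CPM on day 7, and at 35.1, 41.8 and 45.5 CPM in the diabetic group (replicates 1, 2 and 3). The day 0 and diabetic libraries overlapped, and the day 7 libraries lay above all of them. From day 0 to day 7 it rose 2.46-fold, from 39.2 ± 0.754 to 96.4 ± 12.04 CPM (mean ± SD, n = 3 each), a log2 fold change of 1.30 ± 0.20 (SE) with an edgeR adjusted p of 0.00442. It passed in all 19 alternatives, with log2 fold changes from 0.74 with limma to 1.34, and 0.75 with total counts. In the deposited TPM, which has no TMM scaling, it was 40.9 to 48.3 on day 0 and 67.8 to 80.3 on day 7.

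The other miR-467 rows of the 5p arm were less abundant. miR-467e-5p stood at 6.24, 6.63 and 7.11 CPM on day 0, at 10.3, 22.1 and 16.4 CPM on day 7 and at 11.0, 11.0 and 9.998 CPM in the diabetic group. Day 7 and day 0 did not overlap, and the rise was 2.43-fold (1.28 ± 0.30, edgeR adjusted p = 0.0204). miR-467c-5p, the head of the first of the 12 repeats, stood at 6.24, 3.05 and 2.03 CPM on day 0, at 10.6, 14.4 and 9.63 CPM on day 7 and at 3.01, 4.604 and 2.07 CPM in the diabetic group. It rose 3.02-fold on day 7 (1.60 ± 0.43, edgeR adjusted p = 0.0352), again with no overlap between day 7 and either other group. The only tested 3p row of the family, miR-467a-3p, which has the same counts as miR-467d-3p, stood at 4.34 ± 0.194 CPM on day 0 and 8.24 ± 3.29 CPM on day 7 (0.95 ± 0.37, edgeR adjusted p = 0.127, n = 3 each).

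The calls of miR-467e-5p and miR-467c-5p depended on single libraries and on the scaling or test, while their direction did not. With edgeR, miR-467e-5p had an adjusted p of 0.0929 or 0.0602 when replicate 2 or 3 of day 0 was left out, and of 0.124 when replicate 2 of day 7 was, at log2 fold changes of 1.21, 1.34 and 0.91. For miR-467c-5p the adjusted p was 0.157 or 0.115 when replicate 2 or 3 of day 0 was left out, 0.112 or 0.146 when replicate 1 or 2 of day 7 was, and 0.0539 when diabetic replicate 2 was, at 1.36, 1.35, 1.59, 1.32 and 1.54. With total counts neither passed (adjusted p = 0.108 and 0.121, at 0.76 and 1.02), nor with limma (adjusted p = 0.126 and 0.0791). miR-467c-5p also missed with upper-quartile scaling (0.0550) and when totals left out miR-21a-5p (0.0561). Across the alternatives, miR-467e-5p passed in 14 of 19 alternatives and miR-467c-5p in 9 of 18.

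In the miR-669 family, 3 of the 4 tested rows did not pass, and the other, miR-669a-5p, is described only. miR-669a-5p stood at 8.24, 8.42 and 8.80 CPM on day 0, at 29.5, 24.7 and 19.3 CPM on day 7, and at 7.94, 8.47 and 14.1 CPM in the diabetic group. Its day 7 libraries lay above the 6 others, at 2.90-fold the day 0 level (log2 fold change 1.53 ± 0.29). miR-669a-3p went from 7.43 ± 1.18 to 11.7 ± 1.61 CPM (mean ± SD, n = 3 each), a log2 fold change of 0.64 ± 0.27 that did not pass (edgeR adjusted p = 0.145). miR-669c-5p, from a single gene, stood at 7.49, 9.14 and 7.79 CPM on day 0 and at 14.7, 15.7 and 9.15 CPM on day 7, so that the lowest day 7 library was hardly above the highest of day 0. Its log2 fold change was 0.70 ± 0.28 and did not pass (edgeR adjusted p = 0.132). miR-669o-5p, near the filter, had 0.79 ± 0.66 (edgeR adjusted p = 0.458), with overlapping groups.

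The share of 5p counts among both arms needs no library scaling. For miR-669a it was 56.9% (33 of 58 counts), 49.5% (47 of 95) and 54.2% (26 of 48) on day 0, against 72.5% (100 of 138), 70.5% (74 of 105) and 58.8% (40 of 68) on day 7. In the diabetic group it was 50.4%, 50.0% and 58.6%. The day 7 libraries were the highest, but by only a narrow margin over diabetic replicate 3, and the exact (Clopper-Pearson) 95% interval of day 7 replicate 3, 46.2% to 70.6%, covers every value of the other groups. For miR-467a the share was 89.5% to 90.7% on day 0, 90.3% to 94.5% on day 7 and 85.6% to 93.0% in the diabetic group, with overlap between all groups. Its 5p row is merged with miR-467b-5p and its 3p row with miR-467d-3p, so the arms may hold reads of different hairpins. Both shares were looked at after the values were seen and were not tested.

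**Figure D3:**
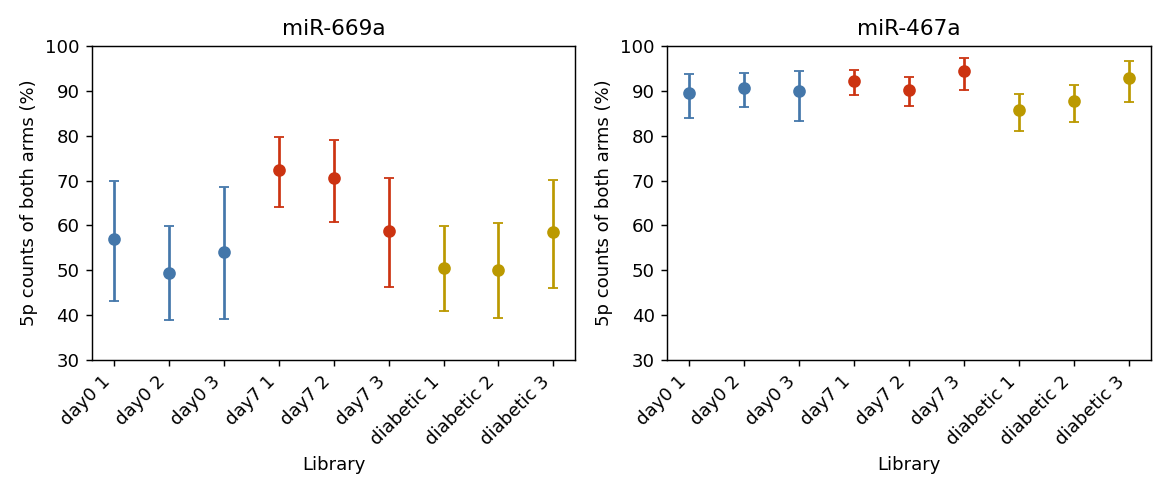
Share of 5p counts among the counts of both arms for miR-669a (left) and miR-467a (right) in each library, in percent; the vertical axis starts at 30. Points are libraries and bars are exact 95% binomial intervals. The miR-669a share lies at 49.5% to 56.9% on day 0 and 58.8% to 72.5% on day 7, while that of miR-467a is at 85.6% or above throughout.

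Of the 4 miR-466 rows tested, 3 did not pass, and miR-466b-5p is described only. miR-466b-5p had 4, 8 and 4 counts on day 0, 14, 16 and 12 on day 7 and 6 in each diabetic library. In CPM these were 0.998, 1.43 and 1.35, then 4.13, 5.35 and 5.78, then 0.822, 1.10 and 2.07, with day 7 above both other groups. Its day 7 level was 3.90-fold that of day 0 (log2 fold change 1.96 ± 0.43), but a row that enters the table of tested rows only through its day 7 libraries had to be high there. It moved to the other side of the threshold when replicate 2 or 3 of day 0, or replicate 1 or 2 of day 7, was left out.

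miR-466a-3p, equal in counts to miR-466b-3p, had 8, 15 and 1 counts on day 0 and 13, 16 and 10 on day 7, a log2 fold change of 1.34 ± 0.56 that did not pass (edgeR adjusted p = 0.143). miR-466c-5p had 0.68 ± 0.44 (edgeR adjusted p = 0.348). miR-466i-5p, whose gene lies outside Sfmbt2, stood at 3.00, 9.14 and 14.2 CPM on day 0, at 8.25, 10.03 and 12.5 CPM on day 7 and at 4.25, 3.68 and 12.1 CPM in the diabetic group. Its groups overlapped throughout, with 0.23 ± 0.56 for day 7 against day 0 (edgeR adjusted p = 0.809). This value was negative in 3 of 18 alternatives: with total counts (-0.25), with limma (-0.08) and without day 0 replicate 1 (-0.25).

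In 10 of the 12 tested rows the day 7 libraries lay above all day 0 libraries, against 18.3% of all tested rows, and in 8 of 10 without miR-669a-5p and miR-466b-5p. With total counts the number was 3 (miR-467a-5p, miR-669a-5p and miR-466b-5p), against 6.71% of all tested rows, and 1 of 10 without the latter 2 rows. The 12 log2 fold changes were all above 0 with TMM. With total counts that of miR-466i-5p was negative.

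**Figure D4:**
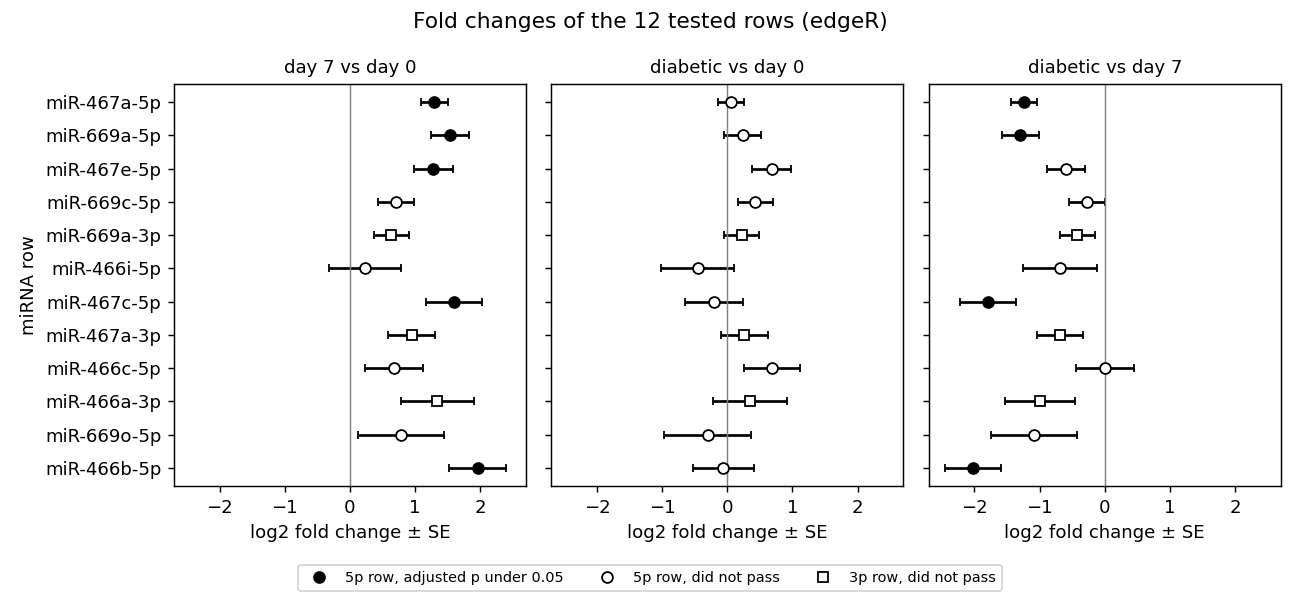
log2 fold changes (horizontal axis) with SE of the 12 tested distinct rows in the 3 comparisons, from the edgeR fit over all 9 libraries. Circles are 5p and squares 3p rows, and filled symbols have an adjusted p under 0.05, which for miR-669a-5p and miR-466b-5p against day 7 is only a description. For day 7 against day 0 all 12 lie above 0, from 0.23 to 1.96, and for the diabetic group against day 0 they lie between -0.45 and 0.69.

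The diabetic group was then set against skin of day 0. Of the 12 tested rows 0 passed (edgeR, DESeq2 and limma on TPM each called 0), as did 0 of all 447 rows, 0%, with edgeR. At an unadjusted p under 0.05 there was 1 of the 12 and 40 of the 447. The 1 was miR-467e-5p, at 6.66 ± 0.435 CPM on day 0 and 10.7 ± 0.582 CPM in diabetic skin (mean ± SD, n = 3 each), with no overlap (0.68 ± 0.30, edgeR adjusted p = 0.546). miR-669c-5p was the other row whose 3 diabetic libraries lay above all of day 0 (0.43 ± 0.27, edgeR adjusted p = 0.680), so that this held for 2 of 12 against 8.28% of all tested rows.

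miR-467a-5p, the most precisely measured member, differed by 0.05 ± 0.20 on the log2 scale between the diabetic group and day 0 (edgeR adjusted p = 0.944). The median over the 12 rows was 0.23, against 0.04 over all tested rows. A miss of the threshold does not show that levels were alike: the SE of single rows ran from 0.20 for miR-467a-5p to 0.67 for miR-669o-5p.

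Against the day 7 wound edge, 4 of the 12 rows were past the threshold as lower in the diabetic group, 0 as higher, and 8 did not pass (edgeR). Over all 447 rows 12.1% were called lower and 7.83% higher, 19.9% in all. Without miR-669a-5p and miR-466b-5p, 2 of 10 were lower. The decrease of miR-467a-5p was 2.37-fold (-1.24 ± 0.20, edgeR adjusted p = 0.00172) and that of miR-467c-5p 3.47-fold (-1.80 ± 0.43, edgeR adjusted p = 0.0129). As a description, miR-466b-5p stood 4.07-fold (-2.03 ± 0.43) and miR-669a-5p 2.46-fold (-1.30 ± 0.28) below the day 7 level. The comparisons share the day 7 libraries, so these values are not separate evidence of a day 7 level.

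miR-467e-5p, with its intermediate diabetic level, did not pass in this comparison (-0.60 ± 0.29, edgeR adjusted p = 0.176), nor did miR-669c-5p (-0.27 ± 0.27, 0.507) or miR-466c-5p (0.01 ± 0.44, 0.993). The 3 tested 3p rows lay between -0.996 and -0.419. In 6 of the 12 rows the diabetic libraries lay below all day 7 libraries, against 20.8% of all tested rows. With total counts this held for 4 of the 12, against 6.26%, and 1 row, miR-669c-5p, lay above day 7 in all diabetic libraries, against 45.9%. These counts include miR-669a-5p and miR-466b-5p, whose choice favoured a high day 7 level. Without them the diabetic libraries lay below day 7 in 4 of 10 rows with TMM and in 2 of 10 with total counts. Directions of rows that did not pass turned with total counts: miR-669c-5p was then at 0.38, miR-669a-3p at 0.22, miR-467e-5p at 0.05 and miR-467a-3p at 0.01. The median over all tested rows in this comparison was 0.61 with total counts and -0.02 with TMM. The call of miR-467c-5p was lost when replicate 2 of day 7 was left out (edgeR adjusted p = 0.0648, at -1.55), with total counts (0.0693, at -1.12) and with limma (0.0543). The values of miR-669a-5p moved to the other side of the threshold with total counts (-0.67) and without replicate 1 of day 7 (-1.10) or diabetic replicate 2 (-1.14), and that of miR-466b-5p without the latter (-1.90).

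The 40 distinct rows below the filter, with 753 counts in all, were summed by family. As 1 sum they stood at 12.2, 16.5 and 15.9 CPM on day 0, at 30.9, 32.1 and 34.7 CPM on day 7, and at 16.7, 20.6 and 19.997 CPM in the diabetic group. With TMM the day 7 sums lay above all others, at 2.19 times the day 0 mean. With total counts they lay above day 0, at 1.53 times its mean, but overlapped with the diabetic group. The diabetic sums also lay above those of day 0, at 1.28 times the day 0 mean with TMM and 1.39 times with total counts. They overlapped with day 0 when totals left out miR-21a-5p. These differences were not tested. No row enters this sum because of its day 7 level, but rows that are high on day 7 may have left it by passing the filter. The 18 low miR-466 rows went from 6.55 ± 1.63 to 16.4 ± 6.66 CPM and the 14 low miR-669 rows from 5.07 ± 0.643 to 9.90 ± 3.91 CPM (mean ± SD, n = 3 each). The 4 low miR-467 rows, mostly miR-467d-5p, stood at 1.999 ± 0.0305 CPM on day 0 and 2.03 ± 0.604 CPM on day 7, and with total counts their day 7 values lay below those of day 0.

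Among single low rows counting error is large. miR-467d-5p had 6, 9 and 6 counts on day 0, 8, 4 and 4 on day 7 and 14, 16 and 7 in the diabetic group, with overlapping CPM in all groups. miR-297b-3p, the most abundant miR-297 row, had 0, 7 and 2 counts on day 0, 6, 14 and 2 on day 7 and 7, 13 and 6 in the diabetic group. miR-669l-5p, miR-466d-3p and miR-669b-5p, with 56, 48 and 46 counts in all, also overlapped between day 0 and day 7. The whole miR-297 family had 1, 10 and 5 counts on day 0, 10, 22 and 5 on day 7 and 14, 24 and 9 in the diabetic group. Its sums were 0.250, 1.79 and 1.69 CPM on day 0, 2.95, 7.36 and 2.41 CPM on day 7 and 1.92, 4.42 and 3.10 CPM in diabetic skin. Day 7 and the diabetic group each lay above day 0 without overlap, and the diabetic mean was 2.53 times that of day 0 with TMM and 2.82 times with total counts. These ratios rest on a few reads per library, were not tested, and between diabetic skin and day 7 the groups overlapped.

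**Figure D5:**
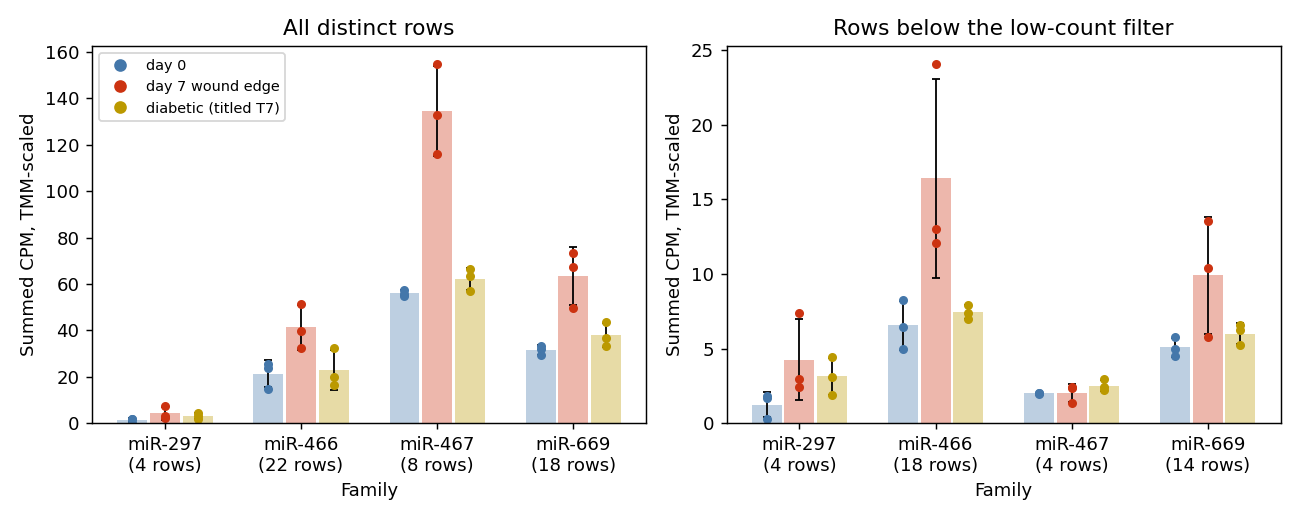
Summed TMM-scaled CPM of each family (horizontal axis) in the 3 groups, for all distinct rows (left) and for rows below the low-count filter (right). Bars are means of 3 libraries, error bars are SD and points are libraries. The miR-467 sum is at 54.8 to 57.4 CPM on day 0 and 116 to 155 CPM on day 7, while the low miR-467 rows stay near 2 CPM in the day 0 libraries and do not separate on day 7.

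Summed over all rows, miR-467 stood at 56.0 ± 1.31 CPM on day 0, 134 ± 19.5 CPM on day 7 and 62.3 ± 4.70 CPM in the diabetic group. miR-669 stood at 31.6 ± 2.12, 63.4 ± 12.3 and 37.9 ± 5.16 CPM in the same order, and miR-466 at 21.3 ± 5.76, 41.2 ± 9.63 and 22.9 ± 8.43 CPM (mean ± SD, n = 3 each). Day 7 lay above day 0 without overlap in each of these sums with TMM, and with total counts in miR-467 and miR-669 but not in miR-466. However, miR-669a-5p is part of the miR-669 sum and miR-466b-5p of the miR-466 sum, and their choice favoured a high day 7 level. Both are also in the sum of all members below. Family sums that leave out only these rows were not made. With total counts the 14 low miR-669 rows overlapped between day 7 and day 0 (ratio 1.32). The family means of day 7 were above those of day 0 under all 5 scalings tried. All members together summed to 102, 115 and 114 CPM on day 0, 241, 269 and 220 CPM on day 7 and 109, 128 and 142 CPM in the diabetic group, where day 7 was at 2.21 times the day 0 mean with TMM and 1.52 times with total counts. Without miR-467a-5p the ratio was 2.07 with TMM. The diabetic sums of all members overlapped with day 0 with TMM (ratio 1.15) and lay above day 0 with total counts (ratio 1.22), which was not tested. In bulk tissue, more cells that make a miRNA and more of it per cell cannot be told apart.

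By position, the 42 distinct rows whose genes all lie in Sfmbt2 summed to 98.1, 102 and 97.8 CPM on day 0, 229, 254 and 201 CPM on day 7 and 101.1, 120 and 128 CPM in the diabetic group. The 6 rows from elsewhere, which are mostly miR-466i-5p, summed to 3.49, 11.3 and 15.6 CPM on day 0, 9.43, 11.4 and 17.3 CPM on day 7 and 5.48, 5.16 and 13.4 CPM in the diabetic group. The first set, which includes miR-669a-5p and miR-466b-5p, separated day 7 from both other groups with TMM, and the second overlapped in all. The difference between the sets was not tested. Of the 3 rows called higher without miR-669a-5p and miR-466b-5p, miR-467a-5p and miR-467c-5p have genes among the 12 repeats and miR-467e-5p does not. miR-669a-5p and miR-466b-5p, which are described only, have genes there as well. Of the 7 that did not pass, miR-466c-5p, miR-467a-3p and miR-669a-3p have genes there too, as does miR-466b-3p, which was merged with miR-466a-3p.

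Markers of other cells moved between the same groups. Of 6 myeloid and lymphoid miRNAs, among them miR-223-3p of neutrophils and macrophages, 5 rose from day 0 to day 7 (edgeR), against 8.05% of all tested rows. In diabetic skin 5 of these 6 stood lower than in the wound edge (edgeR), against 12.1% of all tested rows, and 0 were at 0 counts. Their summed level was 861 to 1095 CPM on day 0, 1731 to 2334 CPM on day 7 and 727 to 902 CPM in the diabetic group. Of 7 keratinocyte and epithelial miRNAs 3 were lower on day 7 than on day 0 (edgeR), against 4.7% of all tested rows. In the diabetic group 3 of these 7 were higher than on day 7 (edgeR), against 7.83%. Their sums were 67999 to 81578 CPM on day 0, 57161 to 61576 CPM on day 7 and 62174 to 88886 CPM in the diabetic group. Of 4 striated muscle miRNAs none passed in any comparison (edgeR), with sums of 44329 to 62633, 50410 to 100730 and 30284 to 132624 CPM. The part of these cells in the levels of the miR-467, miR-669 and miR-466 rows was not tested.

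Among imprinted miRNAs from other loci, only the arms of miR-335 passed the threshold. Of 14 listed from Mest, the Gnas region, Igf2, H19 and Dlk1-Dio3, 13 were in the table and 8 were tested. Both arms of miR-335, from Mest, rose from day 0 to day 7 (edgeR), miR-335-3p 14.8-fold and miR-335-5p 4.31-fold, which rank 1 and 3 in fold change among the 447 rows. Thus 2 of 8 were called higher, against 8.05% of all tested rows, 0 were lower, and the median log2 fold change of the 8 was -0.23 against 0.08 over all tested rows. The 2 are arms of the same miRNA, and the list was chosen with earlier results of these data known. The count is therefore only a description. miR-127 and miR-434, of the Dlk1-Dio3 locus, lay between -0.41 and -0.11 and did not pass. For the diabetic group against day 0, 0 of the 8 passed with edgeR, and against day 7 the same 2 arms of miR-335 were lower.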

How the data were processed

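The authors deposited 1 table with a read count and a TPM value for every miRNA in each library, per the file headers. Those deposited counts were whole numbers, not normalized. The deposited TPM values equal CPM of the column total, checked on the table, and are not divided by length. Bowtie, DESeq 3.0.3 and mm9 are named, with no role, per the submitters' processing notes. How reads with several matches were counted is not given in the sources used here, which matters for near-identical hairpins: such a read may have been counted in several rows, as the 4 merged rows show.

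Counts were tested with edgeR 4.0.16 (quasi-likelihood F test, R 4.3.3, TMM, 1 fit over 9 libraries, filterByExpr at min.count 10 and min.total.count 15, leaving 447 rows), with Benjamini-Hochberg adjustment over all of them. The fit was tested on simulated data. DESeq2 1.42.0 and limma 3.58.1 (pseudocount 1 on TPM) were alternatives. SE values come from the F statistic. CPM are counts over TMM-scaled totals.

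Members and lists were chosen with earlier results of these data known. Named miRNAs are the tested members, the largest row of each family, the 5 largest rows below the filter and the fixed lists. Replicates differed far beyond counting noise (chi-square 155 to 1291 per degree of freedom). Same-numbered libraries deviated together in 9 of 9 pairs (correlation over 0.1, from 0.102 to 0.484), and without miR-122 rows in 6 of 9. Libraries of different numbers were not compared in this way, so these correlations cannot show whether the numbers mark pairs, and the labels do not say. The main fit therefore has no block, and the fit with the replicate block was an alternative.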

Additional observations from a re-analysis of the deposited data

How the results depend on the processing

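For day 7 against day 0, 5 member rows were called. The count was 3 with total-count scaling, 3 with limma on log2(TPM + 1) and 3 with a mean CPM of at least 10, which left 4 member rows to test, and it ran from 2 to 5 when a library was left out. It was 4 or 5 under the other alternatives, among them DESeq2, upper-quartile scaling, total counts without miR-21a-5p and no low-count filter. Over all 447 rows, 57 were called in the main fit, 133 with total-count scaling, 109 with limma and 71 with DESeq2. With a mean CPM of at least 10 the calls over all rows were 54 of 309, and with a library left out 19 to 68. For the diabetic group against day 7, 4 member rows were called in the main fit. That count was 2 under total-count scaling and 2 with a mean CPM of at least 10, and 2 to 4 when a library was left out. Over all rows, 89 of 447 were called in the main fit, 198 with total-count scaling and 80 of 309 with a mean CPM of at least 10. With a library left out, the calls over all rows ran from 49 to 101. For the diabetic group against day 0, 0 member rows were called under all 19 alternatives. Over all rows the most called there was 10 of 1129, with no low-count filter. These counts include miR-669a-5p and miR-466b-5p. The replicate block left 5, 4 and 0 calls in these comparisons and changed no call. DESeq2 gave no adjusted p for miR-466b-5p in day 7 against day 0. miR-467a-5p kept both of its calls in all 19 alternatives. Apart from the reduced number of rows tested, the causes were not tested. With totals in place of TMM the miR-467 sums were 62.3, 102.3 and 74.0 CPM at day 0, day 7 and in the diabetic group. They would be 99.5, 239 and 108 CPM in the same order with TMM if equal rows were added as deposited. Low counts limit precision in most members: 40 of 52 distinct rows were below the filter, and without the filter all 52 were tested and the same 5, 4 and 0 rows were past the threshold.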
